A study of Mus musculus with 4 samples.

Results

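The 31 genes described here encode the enzymes that split glucose to pyruvate and lactate, the carriers that bring glucose in and lactate in or out, and the switches at the entry to the mitochondrion. They were chosen by gene symbol from a table of 24328 symbols, and all 31 were found. The table holds levels scaled by transcript length and library size, taken here to be FPKM. They are for polyadenylated RNA from mouse muscle stem cells (satellite cells), which carry the Pax7 marker and repair muscle. Tissue was fixed by perfusion of the mice with paraformaldehyde ahead of digestion and cell sorting. The 2 YFP libraries came from mice 7 months old of the strain Pax7CreERT2/+; ROSA26YFP/+, and the 2 DEK libraries from mice 4.5 months old of the strain Pax7CreERT2/+; H11DEK-EGFP/+. Both groups thus carried 1 Pax7CreERT2 allele, which limits the recombined cells to the Pax7 lineage. They differed in reporter, locus and age along with the DEK transgene, and these cannot be told apart. The labels do not say how many animals each library holds or whether replicates were separate animals, so the p-values speak only of the spread among the libraries, which may be technical.

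Glycolysis turns glucose into pyruvate in the cytosol, and lactate dehydrogenase converts pyruvate to lactate so that the pathway can continue without oxygen. The pyruvate dehydrogenase complex instead turns pyruvate into acetyl-CoA for the mitochondrion, and its kinases switch the complex off. Quiescent satellite cells are known to rely mostly on oxidation of fatty acids and to raise glycolysis as they are activated.

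Dek, the gene carried by the transgene, stood at 512 and 504 FPKM in the YFP libraries (replicates 1 and 2, the order kept throughout), against 3196 and 1639 in the DEK libraries. The satellite cell markers Pax7 and Myf5 were present in all libraries, Pax7 at 93.9 to 184 FPKM and Myf5 at 220 to 312 FPKM. The summed level of 10 such markers overlapped between groups, at 1627 and 1553 FPKM in YFP and 1492 and 2026 FPKM in DEK. By the limma test described below, 1 of the 10 was called higher and 0 lower. By unadjusted p under 0.05 in limma, 3 were higher and 0 lower (30% higher, against 16.9% of all tested genes). Column totals ran from 541183 to 545123 FPKM, and the table gives no read depth. The ribosomal RNA precursor Rn45s held 11.8% and 15.7% of the YFP totals, and 5.15% and 5.55% of the DEK totals. With it removed and the rest rescaled, the median over all tested genes (log2 fold change) shifted by -0.13, so the small positive values below are given beside that median.

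Of the 31 genes 28 passed the low filter (1 FPKM in 2 or more libraries) and entered the limma test on log2(FPKM + 1), with Benjamini-Hochberg adjustment over 12179 genes. The 3 that were not tested were the brain aldolase Aldoc, the muscle phosphoglycerate mutase Pgam2 and the liver and muscle regulator Pfkfb1, each at 0.446 FPKM or less in every library. At an adjusted p under 0.05, 3 of 28 were called, a share of 10.7%, and all were higher in DEK. They were the lactate and pyruvate carrier Slc16a1, the regulator of fructose 2,6-bisphosphate Pfkfb4 and the pyruvate kinase Pkm. Among all tested genes 7.78% were called, 4.57% higher and 3.21% lower, so the members' share is near that background. The groups did not overlap in 18 of 28 members (64.3%), against 60.9% of all tested genes. The median log2 fold change was 0.26 over the members and 0.05 over all tested genes. With Rn45s removed these medians were 0.12 and -0.08, a difference between them of 0.20 against 0.21 before.

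**Figure D1:**
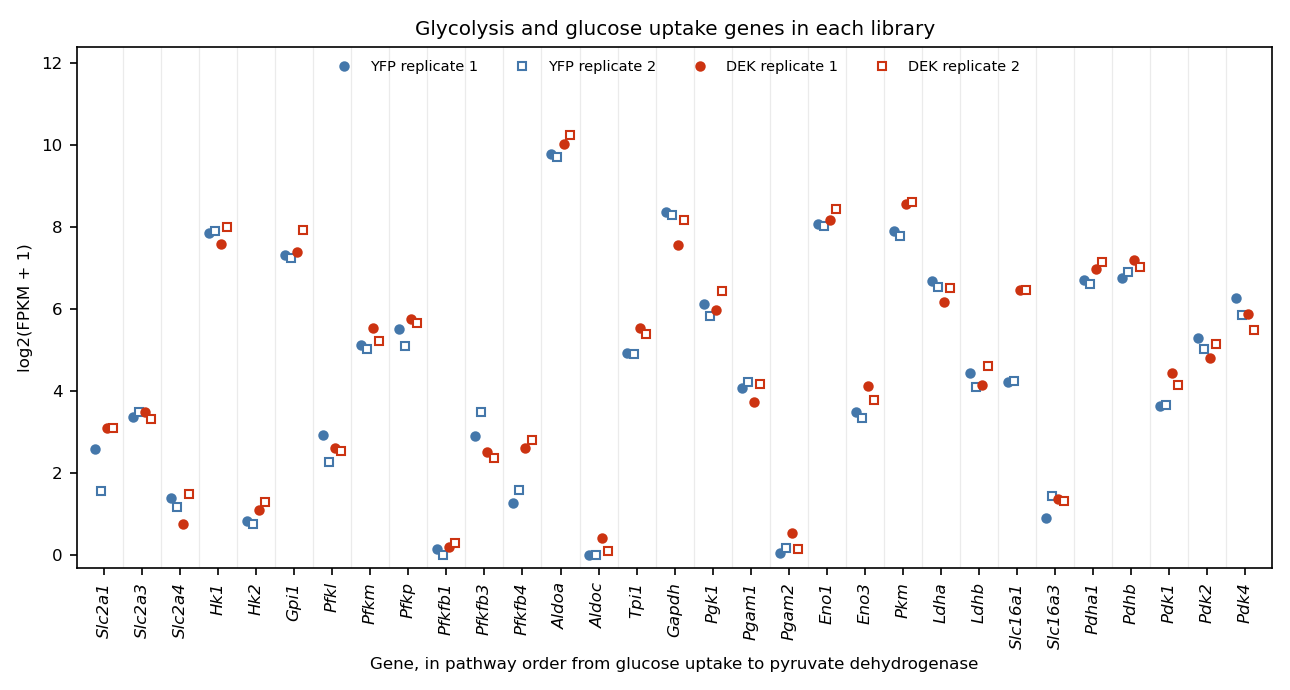
Level of the 31 genes in each library as log2(FPKM + 1), in pathway order along the x axis; circles are replicate 1, squares replicate 2, blue YFP and red DEK. The 2 groups stand farthest apart at Slc16a1, while Aldoa is the highest of the genes in all 4 libraries.

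Slc16a1 encodes monocarboxylate transporter 1, which carries lactate, pyruvate and ketone bodies across the plasma membrane together with a proton. It stood at 17.6 and 18.1 FPKM in the YFP libraries and at 87.5 and 87.3 in the DEK libraries. The groups were far apart and the replicates of each group almost equal. The mean was 17.8 ± 0.342 FPKM for YFP and 87.4 ± 0.163 for DEK (SD, n = 2 each), which is 4.90-fold higher. On the log2 scale this was 2.23 (SE 0.13, limma adjusted p = 0.0031). Slc16a3, the carrier best known for lactate export from glycolytic muscle fibres, was low and overlapped between groups, at 0.886 and 1.73 FPKM in the YFP libraries and at 1.59 and 1.48 in the DEK libraries (log2 fold change 0.16, adjusted p = 0.713). Slc16a1 therefore made up 95.2% and 91.3% of the summed FPKM of the pair in YFP and 98.2% and 98.3% in DEK. Bsg, the chaperone that brings both carriers to the membrane, stood at 23.2 and 22.3 FPKM in the YFP libraries and at 25.2 and 26.9 in the DEK libraries, a difference that was not called (log2 fold change 0.19, adjusted p = 0.434).

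Pfkfb4 and Pfkfb3 belong to the enzymes that make and break fructose 2,6-bisphosphate, the strongest activator of phosphofructokinase. Pfkfb4 stood at 1.41 and 1.99 FPKM in the YFP libraries and at 5.09 and 5.996 in the DEK libraries. Both DEK values were above both YFP values, 3.25-fold higher in the mean (log2 fold change 1.28, SE 0.22, limma adjusted p = 0.0289). Pfkfb3, whose product strongly favours synthesis of the activator, had its values the other way round, at 6.47 and 10.3 FPKM in the YFP libraries and at 4.72 and 4.17 in the DEK libraries. Its log2 fold change of -0.75 (SE 0.25) did not pass (adjusted p = 0.115), and the YFP replicates were farther apart than the DEK replicates. Of the summed FPKM of Pfkfb1, Pfkfb3 and Pfkfb4, Pfkfb4 took 17.7% and 16.3% in YFP and 51.0% and 57.7% in DEK. Pfkfb3 took 81.0% and 83.7% in YFP and 47.4% and 40.1% in DEK. The sum itself overlapped between groups, at 7.99 and 12.3 FPKM in the YFP libraries and at 9.96 and 10.4 in the DEK libraries, so the composition differed and the total did not separate. These shares have 2 libraries a group, where an exact two-sided permutation test gives 0.333 at the smallest, and 0.333 was obtained for Pfkfb4. Pfkfb2, the heart type and not among the 31, is not in these shares. It stood between 8.38 and 12.1 FPKM, above Pfkfb4 in every library, and overlapped between groups. The shares are therefore not those of the whole Pfkfb family.

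**Figure D2:**
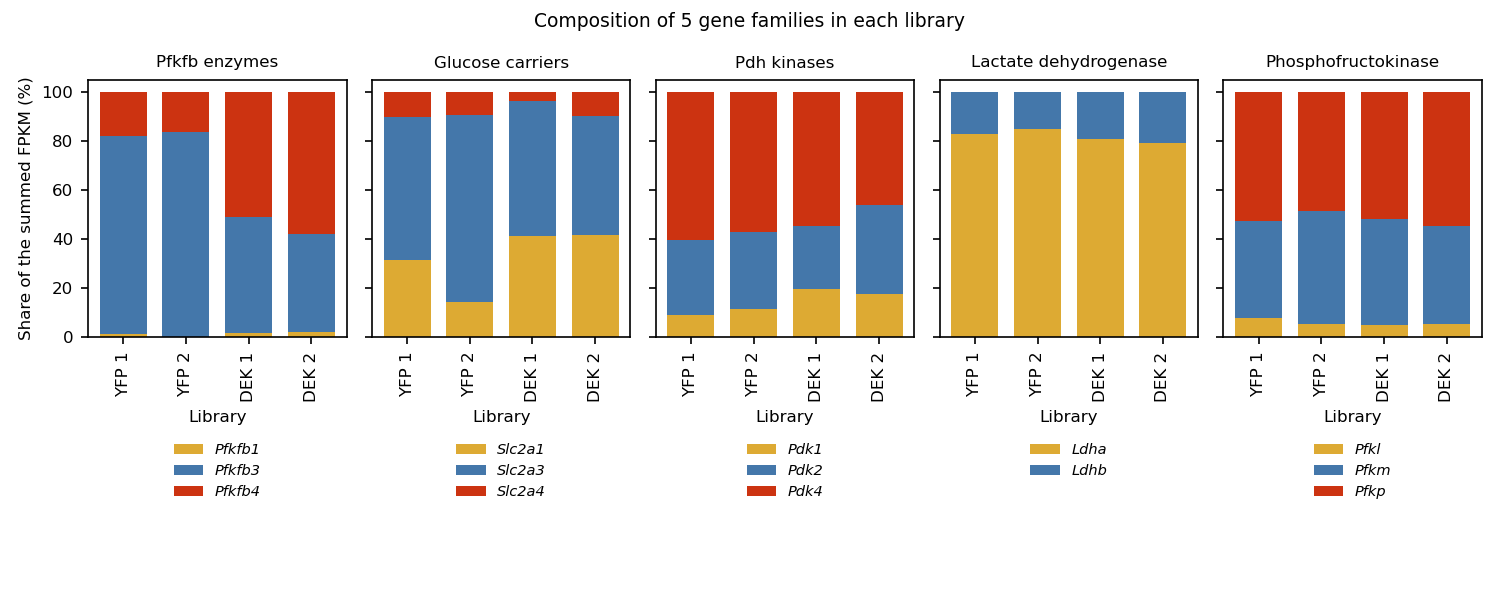
Share of each gene in the summed FPKM of its family, in percent, for 5 families with 1 bar per library (YFP 1 and 2, DEK 1 and 2). Pfkfb4 takes 16.3% to 17.7% in YFP and 51.0% to 57.7% in DEK, while the shares of Pfkm and Pfkp overlap between groups.

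Pkm encodes the pyruvate kinase of muscle and of dividing cells, which makes pyruvate and ATP at the last step. It stood at 239 and 219 FPKM in the YFP libraries and at 381 and 392 in the DEK libraries. The groups did not overlap, and the mean was 1.69-fold higher in DEK (log2 fold change 0.75, SE 0.13, limma adjusted p = 0.0323). The M1 and M2 splice forms share this symbol, so the table does not tell which form differed.

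These 3 calls held unequally when libraries were left out. The log2 fold change of Slc16a1 ran from 2.02 to 2.29 over 18 other settings, and the call was lost in 1 of them, without DEK replicate 1 (limma adjusted p = 0.0798), where 0 of all genes were called and 1408 were higher and 807 lower by unadjusted p under 0.05. With the low filter applied afresh to the 3 remaining libraries it was called also without DEK replicate 1. Pfkfb4 was called in 9 of 18 settings and kept its direction in all 18, with a log2 fold change from 0.65 with an added value of 5 to 1.66 with 0.1. It was not called by limma without any 1 of the 4 libraries (adjusted p from 0.103 to 0.167). Pkm was likewise called in 9 of 18 settings, with a log2 fold change from 0.61 to 0.81, and was not called by limma without any 1 library on the same genes (adjusted p from 0.0963 to 0.211).

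**Figure D3:**
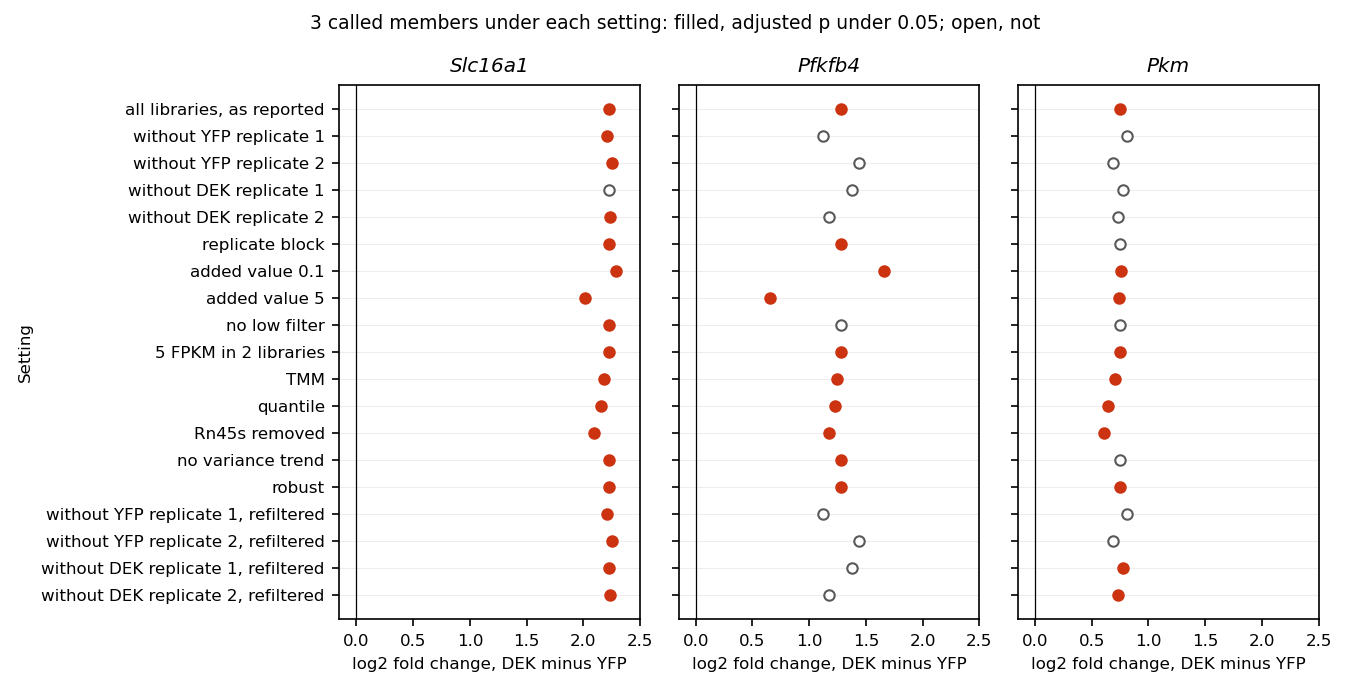
Log2 fold change (x axis) of Slc16a1, Pfkfb4 and Pkm under each setting (y axis); filled points have a limma adjusted p under 0.05 and open points do not. All points lie to the right of 0, and Slc16a1 is open in 1 setting, without DEK replicate 1.

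Markers of several other cell types, and immediate early and dissociation response genes, also differed between groups. For scale, 4.57% of all tested genes were called higher and 3.21% lower. By unadjusted p under 0.05 in limma these shares were 16.9% and 12.2%. Below, rose and fell mean called by limma. Of 14 tested endothelial markers 13 rose by limma, and their summed level went from 61.3 and 60.3 FPKM in YFP to 319 and 251 FPKM in DEK. Most of the YFP sum was Tek, at 55.9 and 56.7 FPKM, and Kdr, Flt1 and Ptprb were listed at 0 in both YFP libraries. Of 11 tested macrophage and leukocyte markers 4 rose, with sums of 10.2 and 90.1 FPKM in YFP and 302 and 419 FPKM in DEK, and 4 of the 15 in the table were listed at 0 in both YFP libraries. Of 5 tested erythroid markers 2 rose, with sums of 8.04 and 0.527 FPKM in YFP and 39.4 and 357 FPKM in DEK. Of 20 immediate early and dissociation response genes 10 rose, from sums of 812 and 711 FPKM to 22678 and 4817 FPKM. Of 10 fibro-adipogenic markers 5 rose and 2 fell, with sums that overlapped (1864 and 1545 FPKM in YFP, 1838 and 1995 FPKM in DEK). Of 5 tested Schwann cell markers 2 rose, with sums of 291 and 250 FPKM in YFP and 322 and 361 FPKM in DEK. Of 10 pericyte and smooth muscle markers 2 rose, with sums that overlapped (740 and 760 FPKM in YFP, 616 and 907 FPKM in DEK). Of 6 tested myofibre markers 0 rose and 1 fell, the giant sarcomere protein Ttn, 2 being higher and 2 lower by unadjusted p under 0.05, and the sums overlapped (121 and 110 FPKM in YFP, 116 and 67.8 FPKM in DEK). By unadjusted p under 0.05 in limma, 13 endothelial (92.9%) and 10 macrophage and leukocyte markers (90.9%) were higher. So were 4 erythroid (80%) and 4 Schwann cell markers (80%), and 17 immediate early and dissociation response genes (85%). In each of these lists 0 were lower. Of fibro-adipogenic markers 6 were higher and 2 lower (60% and 20%), and of pericyte and smooth muscle markers 3 and 2 (30% and 20%). The part of these cells in the members' differences was not tested, and in bulk RNA more cells of a type and more RNA per cell cannot be told apart.

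The stretch before the annotated start of the 2 genes with the largest rises is shown because the core letters bound by hypoxia-inducible factor, ACGTG or GCGTG on either strand, are textbook features of glycolytic promoters, and the E-box CACGTG holds the first of them on both strands. The windows are RefSeq's, on GRCm38.p6 and the + strand, at chr3:104638414-104638663 for Slc16a1 and chr9:108991652-108991777 for Pfkfb4, the latter ending before the first exon of another annotated transcript. Capitals mark these letters on either strand, and none lie in the printed stretch of Pfkfb4.
Slc16a1: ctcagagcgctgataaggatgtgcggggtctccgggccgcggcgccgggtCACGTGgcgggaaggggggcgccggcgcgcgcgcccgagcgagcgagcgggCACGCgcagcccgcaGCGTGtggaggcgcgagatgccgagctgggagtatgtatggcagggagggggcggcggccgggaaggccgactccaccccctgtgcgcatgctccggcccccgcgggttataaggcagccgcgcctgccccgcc
Pfkfb4: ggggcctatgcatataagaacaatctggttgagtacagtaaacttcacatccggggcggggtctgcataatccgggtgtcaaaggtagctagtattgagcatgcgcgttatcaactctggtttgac
In Slc16a1 the E-box begins 200 bases before the start, and the letters CACGC and GCGTG begin 149 and 134 bases before it. In Pfkfb4 the only match, GCGTG, begins 117 bases before the start, past the printed stretch. The 250 bases were 76.4% G and C in Slc16a1 and 50% in Pfkfb4, against a median of 52.4% over all windows. Of 29 members with a window, 26 held ACGTG or GCGTG (89.7%), among them members with no call and members with negative fold changes such as Gapdh, Ldha and Pfkfb3. The share was 62.2% of the 9111 tested genes with a window and 41.5% of all 27025 genes. Among genes with 1 window it was 15 of 18 members (83.3%) and 58.5% of 7265 tested genes. The E-box was in 5 of 29 members (17.2%) and in 10.04% of tested genes, and among genes with 1 window in 1 of 18 members (5.56%) and 8.62% of tested genes. A match of letters is a description of the sequence, and binding was not measured.

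Glucose enters through the Slc2a carriers. Slc2a1, the carrier of basal uptake, stood at 5.02 and 1.96 FPKM in the YFP libraries and at 7.59 and 7.66 in the DEK libraries. The groups did not overlap, but the YFP replicates were far apart, and the log2 fold change of 1.03 (SE 0.35) was not called (limma adjusted p = 0.12). Slc2a3, the high-affinity carrier of neurons, stood at 9.39 and 10.3 FPKM in the YFP libraries and at 10.2 and 8.97 in the DEK libraries, with overlap. Slc2a4, the insulin-responsive carrier of adult muscle and fat, was low everywhere, at 0.693 to 1.81 FPKM, and also overlapped. Slc2a1 took 31.3% and 14.5% of the summed FPKM of these 3 carriers in YFP and 41.1% and 41.5% in DEK. That sum leaves out carriers that are not among the 31, such as Slc2a12 and Slc2a8. Slc2a12 stood at 55.7 and 53.4 FPKM in the YFP libraries and at 59.8 and 55.2 in the DEK libraries, above each of the 3. Slc2a8 stood at 10.1 to 14.8 FPKM, and both overlapped between groups.

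Hexokinases trap glucose in the cell as glucose 6-phosphate. Hk1, the widely expressed form, stood at 231 and 239 FPKM in the YFP libraries and at 191 and 257 in the DEK libraries, so that the DEK values enclosed the YFP values. Hk2, the insulin-regulated form of muscle, stood at 0.771 and 0.689 FPKM in the YFP libraries and at 1.13 and 1.46 in the DEK libraries and was not called (adjusted p = 0.266). Hk1 made up 99.4% to 99.7% of the pair in every library. Gpi1, which makes fructose 6-phosphate, stood at 160 and 152 FPKM in the YFP libraries and at 168 and 244 in the DEK libraries (log2 fold change 0.38, adjusted p = 0.266).

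Phosphofructokinase is the committed step of the pathway. Its platelet and muscle subunits were the more abundant, Pfkp at 45.0 and 33.5 FPKM in the YFP libraries and at 53.7 and 49.9 in the DEK libraries, and Pfkm at 34.0 and 31.9 FPKM in the YFP libraries and at 45.3 and 36.7 in the DEK libraries. Neither was called (log2 fold changes 0.41 and 0.30, adjusted p = 0.199 and 0.27), although both DEK values were above both YFP values. The liver subunit Pfkl, at 3.83 to 6.65 FPKM, overlapped between groups. Pfkp took 48.4% to 54.6% of the 3 subunits and Pfkm 39.7% to 46.0%, both with overlap between groups.

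Aldolase, triose phosphate isomerase and the enzymes after them work on 3-carbon sugars. Aldoa, the muscle aldolase, was the most abundant of the 31 genes, at 879 and 841 FPKM in the YFP libraries and at 1040 and 1228 in the DEK libraries. It was not called (log2 fold change 0.39, SE 0.16, adjusted p = 0.17). Tpi1, which interconverts the triose phosphates, came close to a call, at 29.6 and 29.1 FPKM in the YFP libraries and at 45.5 and 41.4 in the DEK libraries (log2 fold change 0.55, SE 0.14, limma adjusted p = 0.0674). Gapdh, the dehydrogenase often used as a reference gene, was lower in DEK, at 189 and 288 FPKM against 332 and 317 FPKM in YFP. Its log2 fold change of -0.47 (SE 0.22) was not called (limma adjusted p = 0.212), and the DEK replicates were far apart. Of the settings tried, 1 called it lower, without DEK replicate 2 with the low filter applied afresh (log2 fold change -0.78, limma adjusted p = 0.0245). Without DEK replicate 1 the log2 fold change was -0.17 (limma adjusted p = 0.478). Pgk1, the first ATP-making step, stood at 69.0 and 56.6 FPKM in the YFP libraries and at 62.6 and 86.0 in the DEK libraries, with overlap.

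Pgam1, the phosphoglycerate mutase outside muscle fibres, was low beside its neighbours in the pathway, at 15.9 and 17.6 FPKM in the YFP libraries and at 12.3 and 17.1 in the DEK libraries. Eno1, the common enolase, stood at 269 and 263 FPKM in the YFP libraries and at 287 and 350 in the DEK libraries (log2 fold change 0.25, adjusted p = 0.322). Eno3, the enolase of muscle fibres, stood at 10.3 and 9.19 FPKM in the YFP libraries and at 16.5 and 12.8 in the DEK libraries (log2 fold change 0.53, adjusted p = 0.135). Eno1 made up 94.6% to 96.6% of the pair in every library.

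Of the lactate dehydrogenase subunits, Ldha favours making lactate and Ldhb using it. Ldha stood at 103 and 92.2 FPKM in the YFP libraries and at 71.5 and 90.7 in the DEK libraries, lower without overlap, and was not called (log2 fold change -0.27, adjusted p = 0.328). Ldhb stood at 20.8 and 16.3 FPKM in the YFP libraries and at 16.8 and 23.7 in the DEK libraries. Ldhb took 16.8% and 15.02% of the pair in YFP and 19.1% and 20.7% in DEK, a separation of 3.95 percentage points in the means that the exact permutation test cannot call with these numbers (p = 0.333).

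At the entry to the mitochondrion, Pdha1 and Pdhb encode the E1 subunits of pyruvate dehydrogenase. Pdha1 stood at 104 and 96.5 FPKM in the YFP libraries and at 125 and 141 in the DEK libraries, and Pdhb at 108 and 120 FPKM in the YFP libraries and at 145 and 131 in the DEK libraries. Neither was called (log2 fold changes 0.40 and 0.27, adjusted p = 0.13 and 0.254). Of the kinases that inhibit the complex, Pdk1, known from the response to low oxygen, stood at 11.4 and 11.6 FPKM in the YFP libraries and at 20.8 and 16.8 in the DEK libraries (log2 fold change 0.65, SE 0.17, limma adjusted p = 0.0737). Pdk4, known from fasting and fatty acid use, was the most abundant kinase in each library, at 76.0 and 57.5 FPKM in the YFP libraries and at 57.9 and 44.0 in the DEK libraries, with overlap. Pdk2 stood at 27.1 to 38.2 FPKM, also with overlap. The share of Pdk1 in the 3 kinases was 9.09% and 11.5% in YFP and 19.6% and 17.7% in DEK.

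**Figure D4:**
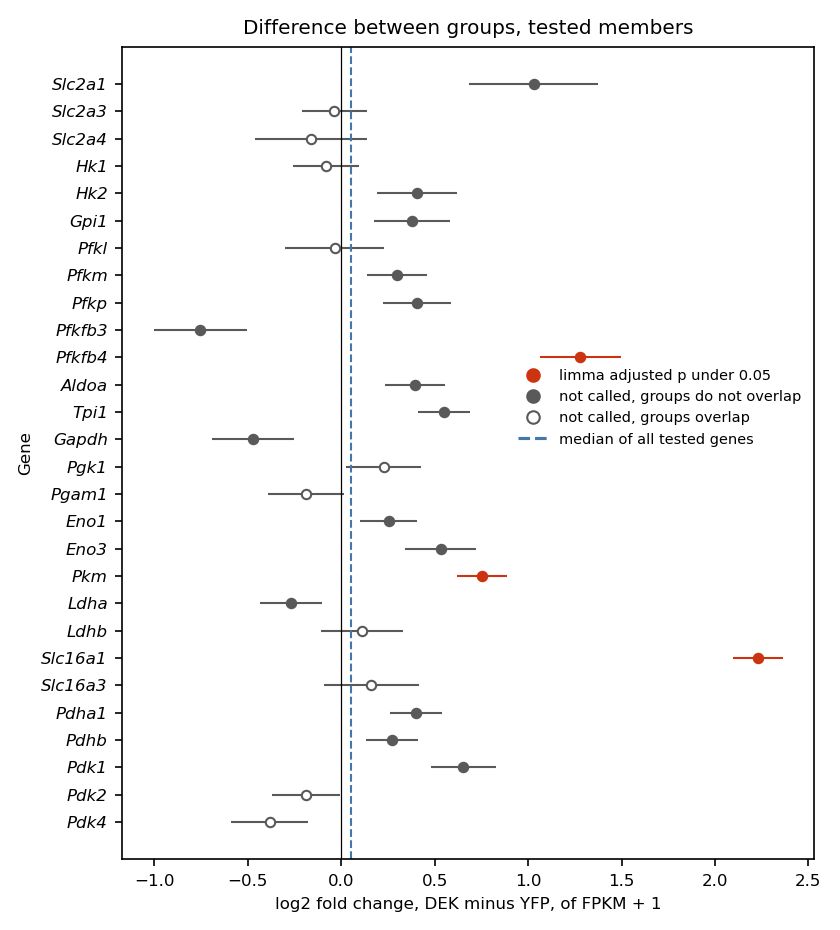
Log2 fold change of FPKM + 1 in DEK over YFP with its standard error (bars) for the 28 tested genes in pathway order; red points are called by limma, open points overlap between groups and the dashed line is the median of all tested genes, 0.05. Values run from -0.75 in Pfkfb3 to 2.23 in Slc16a1, and 18 are above 0.

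Over the 28 genes, 18 log2 fold changes were above 0 and 10 below it. At an unadjusted p under 0.05, 9 were higher and 1 lower by limma, a share of 32.1% and 3.57%, against 16.9% and 12.2% of all tested genes. These counts moved more with some scalings than with others. With trimmed mean (TMM) scaling 9 members were higher and 2 lower, beside 1889 higher and 1849 lower of all 12162 genes. With quantile scaling 7 members were higher and 3 lower, beside 1720 higher and 2017 lower of all 12179 genes. With Rn45s removed 6 members were higher and 4 lower, beside 1422 higher and 2243 lower of all 12153 genes. The 31 genes together took 0.522% and 0.496% of the column total in YFP and 0.565% and 0.664% in DEK. Without Rn45s in the total the shares were 0.592% and 0.588% in YFP and 0.596% and 0.703% in DEK, where DEK replicate 1 lay just above YFP replicate 1. Aldoa alone was 31.1% and 31.3% of that sum in YFP and 33.8% and 34.0% in DEK. Against the YFP mean, the median log2 difference of the 28 genes was 0.15 for replicate 1 of DEK and 0.35 for replicate 2. Over all tested genes these medians were 0.0078 and 0.0898.

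Read assignment limits some of these values. In GENCODE M21 transcripts 10 of the 31 genes had a pseudogene with at least 95% identity over 300 bases, with 74 such pseudogenes for Gapdh, 4 for Pgk1, 3 for Ldha, 2 for Eno1, 1 each for Pkm, Tpi1, Gpi1, Pgam1, Ldhb and Pdhb, and 0 for Slc16a1 and Pfkfb4. Eno1 also has the near-identical gene Eno1b, at 3.66 to 4.84 FPKM. How reads shared by copies were assigned is not given in the sources used here, so levels of these genes, Gapdh above all, are uncertain. Exons of 10 members overlap a gene on the other strand, among them Aldoa, Gapdh, Hk1 and Tpi1, and the counting is not stated to use strand. Slc16a1, Pfkfb4 and Pkm have no such partner, but Pkm shares exon sequence with the annotated gene Gm49759 on the same strand, and Pfkm with Gm26513.

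The other genes of glucose use were taken from 10 lists with 152 genes in the table, of which 126 were tested. Of these 2 were higher and 3 lower in DEK by limma, a share of 3.97% against the background of 7.78%. The median log2 fold change was 0.0475, against 0.0514 over all tested genes. The 2 that rose were Ldhd, the mitochondrial dehydrogenase of D-lactate, and Epas1, a hypoxia-inducible factor subunit abundant in endothelium. Ldhd stood at 1.51 and 0.663 FPKM in the YFP libraries and at 5.88 and 7.19 in the DEK libraries (log2 fold change 1.88, SE 0.27, adjusted p = 0.0186). Epas1 stood at 1.54 and 2.15 FPKM in the YFP libraries and at 6.85 and 5.27 in the DEK libraries (log2 fold change 1.31, SE 0.23, adjusted p = 0.0307). The part of other cells in this difference was not tested.

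The 3 that fell were Foxo3, Psat1 and Mxi1. Foxo3, a transcription factor held back by insulin signalling, stood at 11.9 and 14.0 FPKM in the YFP libraries and at 5.77 and 7.02 in the DEK libraries (log2 fold change -0.92, adjusted p = 0.0441). Psat1, an enzyme that draws serine from glycolysis, stood at 24.8 and 20.7 FPKM in the YFP libraries and at 11.1 and 13.3 in the DEK libraries (log2 fold change -0.84, adjusted p = 0.0461). Mxi1, an antagonist of Myc and a target of hypoxia-inducible factor, stood at 27.0 and 32.1 FPKM in the YFP libraries and at 14.8 and 14.4 in the DEK libraries (log2 fold change -0.97, adjusted p = 0.0274). None of these 5 calls was made by limma with any 1 library left out on the same genes.

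Among 15 tested targets of hypoxia-inducible factor outside the 31, 0 rose and 1 fell by limma, and the median was -0.17. By unadjusted p under 0.05 in limma, 0 were higher and 5 lower (0% and 33.3%, against 16.9% and 12.2% of all tested genes). Hif1a itself stood at 21.8 and 18.5 FPKM in the YFP libraries and at 24.2 and 25.8 in the DEK libraries (adjusted p = 0.262). In the tricarboxylic acid cycle, which burns the acetyl-CoA made from pyruvate, 0 of 20 genes were called. There 15 of 20 log2 fold changes were above 0 (75%, against 54.7% of all tested genes) and the median was 0.28, against 0.05 over all tested genes. By unadjusted p under 0.05 in limma, 7 were higher and 0 lower, a share of 35% higher against 16.9% of all tested genes. The smallest p was that of Sdha, a succinate dehydrogenase subunit, at 94.9 and 101 FPKM in the YFP libraries and at 142 and 152 in the DEK libraries (log2 fold change 0.59, adjusted p = 0.0524). Of 13 tested glycogen genes 0 were called by limma, and the median was 0.44, against the same 0.05. By unadjusted p under 0.05 in limma, 4 were higher and 0 lower (30.8% and 0%, beside the same 16.9% and 12.2%). The glycogen phosphorylase of muscle, Pygm, stood at 13.0 and 12.1 FPKM in the YFP libraries and at 20.1 and 26.9 in the DEK libraries (log2 fold change 0.84, adjusted p = 0.0532).

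Of 10 pentose phosphate genes, which make NADPH and ribose, 0 were called by limma. By unadjusted p under 0.05 in limma, 3 were higher and 2 lower (30% and 20%, against 16.9% and 12.2% of all tested genes). The smallest p there was that of H6pd, the hexose 6-phosphate dehydrogenase of the endoplasmic reticulum, at 199 and 223 FPKM in the YFP libraries and at 105 and 148 in the DEK libraries (log2 fold change -0.75, adjusted p = 0.0715). Of 13 tested glucose and lactate carriers and their regulators 0 were called by limma, 1 being higher and 2 lower by unadjusted p under 0.05. These shares were 7.69% and 15.4%, beside the same 16.9% and 12.2%. Txnip, which restrains glucose uptake, stood at 175 and 125 FPKM in the YFP libraries and at 79.8 and 90.3 in the DEK libraries (log2 fold change -0.80, adjusted p = 0.064). Of 8 partners of pyruvate dehydrogenase 0 were called by limma, with 0 at an unadjusted p under 0.05 in either direction. Of 6 tested genes of gluconeogenesis and shuttles 0 were called by limma, 1 being higher and 1 lower by unadjusted p under 0.05. Each was a share of 16.7%, beside the same 16.9% and 12.2%. Besides Epas1 and Foxo3, 23 of 25 tested regulators were not called. By unadjusted p under 0.05 in limma, 3 regulators were higher and 9 lower (12% and 36%, against 16.9% and 12.2% of all tested genes). Besides Psat1, 9 of 10 genes of the serine and hexosamine branches were not called, and besides Ldhd, 5 of 6 tested isozymes. By the same unadjusted p, 2 serine and hexosamine genes were higher and 1 lower (20% and 10%). Of the isozymes 3 were higher and 0 lower (50% and 0%).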

How the data were processed

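The authors deposited 1 table with a value per gene symbol for each of the 4 libraries, taken here to be FPKM. The values have decimals, as FPKM and TPM both do, and the column totals lay close together (541183 to 545123), so TPM is possible. The submitters' processing notes name the build mm9, the aligner STAR (2.5.3a), StringTie (1.3.3) and R (3.4.1), while settings, annotation and filters are not given in the sources used here. All value columns were used.

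Values were transformed to log2(FPKM + 1), and each gene with 2 or more libraries at 1 FPKM or above was tested with limma 3.58.1 in R 4.3.3 (variance trend, two-sided, no covariate, Benjamini-Hochberg adjustment over all tested genes, call at an adjusted p under 0.05). The fit was tested on simulated data. Fold changes on this scale understate low genes. Shares were tested over libraries by exact permutation. Alternatives were each library left out, a replicate block, added values of 0.1 or 5, other low filters, trimmed mean (TMM) or quantile scaling, Rn45s removal, and limma without a trend or with robust estimation; the low filter applied afresh to 3 libraries was chosen after seeing the data. Genes, lists and tests were chosen with earlier results of these data known. All 31 genes are named; of each other list, up to 3 called genes in each direction or else the gene with the smallest p, though not every one is described. Hif1a, Bsg, Pfkfb2, Slc2a8, Slc2a12, Eno1b and single markers were chosen after their values were seen. Windows and symbols were matched to RefSeq on GRCm38.p6 by symbol (29 of 31 genes), and copies were sought with BLAST 2.17.0; no coordinate was moved between builds. Protein identity between isozymes was not analysed here.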

Additional observations from a re-analysis of the deposited data

How the results depend on the processing

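Of the 3 members called higher by limma, 0 to 1 were called with a library left out on the same genes. The 1 was Slc16a1, and the 0 came without DEK replicate 1, where 8 members were higher and 0 lower by unadjusted p under 0.05. With the low filter applied afresh to 3 libraries (refiltered, chosen after seeing the data), 1 was called without each YFP library and 2 without each DEK library, and 1 with no low filter. The 0 members called lower (1 by unadjusted p under 0.05) became 1, Gapdh, refiltered without DEK replicate 2. The median over the members, 0.26, was 0.15 to 0.35 with a library left out on the same genes (lowest without DEK replicate 2), 0.11 refiltered without DEK replicate 2, 0.15 after quantile scaling and 0.12 with Rn45s removed.

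The 2 higher and 3 lower limma calls among other pathway genes became 0 and 0 without any 1 library on the same genes, with 13 to 22 higher and 8 to 15 lower by unadjusted p under 0.05. They were 0 and 0 with no low filter (29 and 18 by unadjusted p), and also refiltered without YFP replicate 2 or DEK replicate 1. They became 1 and 0 refiltered without YFP replicate 1, 1 and 2 with the replicate block, 2 and 1 with an added value of 0.1, 5 and 3 at 5 FPKM, 5 and 6 with TMM, 3 and 6 with quantile scaling, 2 and 7 with Rn45s removed, and 6 and 3 with robust estimation.

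Over all genes, 557 higher and 391 lower calls became 383 and 235 with the replicate block and 96 and 10 with no low filter. They ran from 0 to 139 higher and 0 to 45 lower with a library left out on the same genes. Refiltered they were 132 and 36 without YFP replicate 1, 67 and 16 without YFP replicate 2, 177 and 125 without DEK replicate 1, and 371 and 409 without DEK replicate 2. The share of calls in the higher direction was 58.8%, against 45.4% with quantile scaling and 42.3% with Rn45s removed. The labels do not say that replicate numbers pair the libraries, and the deviations of the replicates numbered 1 from their group means had a correlation of 0.0635 across genes. With the replicate block Pkm lost its call (limma adjusted p = 0.0675), while Slc16a1 and Pfkfb4 were called.

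The sign of 7 uncalled log2 fold changes turned, with the same values when refiltered. Over the 4 fits with a library left out, Hk1 ran from -0.29 to 0.13, Pgam1 from -0.41 to 0.032 and Slc2a4 from -0.53 to 0.20, each above 0 without DEK replicate 1. Slc16a3 ran from -0.11 (without YFP replicate 1) to 0.43. Pfkl ran from -0.37 to 0.30 (without YFP replicate 1) and was 0.0012 without DEK replicate 2. Ldhb ran from -0.12 (without DEK replicate 2) to 0.35, was -0.055 without YFP replicate 2 and -0.023 with Rn45s removed. Slc2a3 ran from -0.12 to 0.044 (without DEK replicate 2) and was 0.024 without YFP replicate 2. The share of Aldoc in aldolase, 0.0199 percentage points higher in DEK, was 0.00659 to 0.0333 points higher with a library left out. The cause of these changes was not tested. The depth is unknown, so no limit is given for genes listed at 0.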
